A study of Mus musculus with 31 samples.

Results

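Chaperone transcripts were examined in choroid plexus T cells: the 2 cytosolic HSP90 genes Hsp90aa1 and Hsp90ab1, the pseudogene Gm12346 that is nearly identical to Hsp90aa1, the co-chaperone Stip1, and Hspd1 and Hspe1, which encode the mitochondrial chaperonin HSP60 and its co-chaperonin HSP10. These 6 rows of the 485 genes in the expression table were chosen by gene name. They were selected on earlier results of the same data, in which members of this set stood out in EE vs. SE of CD4+ T cells and in CD4 vs. CD8, so all values for those comparisons are given as description, without a test. All 6 genes had counts in each of the 4 groups.

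The study compared T cells of female C57BL6/J mice housed in an enriched environment (EE, large cages furnished with wheels for running, tunnels and other objects) or in a standard environment (SE, smaller and empty cages) for 4 weeks from weaning, which was at 4 weeks of age. Pools of 6 to 20 sorted cells were sequenced from CD4+ T cells of EE mice (n = 9) and SE mice (n = 8) and from CD8+ T cells of EE mice (n = 7) and SE mice (n = 7). No transgene and no treatment other than housing is given for any group. Per the labels, the mice of an environment in each experiment were cage mates, so that cage and environment cannot be told apart. Choroid plexus was digested with collagenase D, and cells were sorted as CD45+ CD11b- CD3+ and CD4+ or CD8+. The environment, first number and animal number in the titles were together taken to identify a mouse, which the labels do not state. So read, the 31 pools came from 20 mice, and 10 of these gave a pool of each cell type. CD8 SE replicates 5 and 6 share an identity, while the other pools within a group came from separate mice. Column names of replicates 5 and 6 carry both animal numbers, so whether they came from a single mouse is not known. The p-values measure the spread between pools. Values are normalised counts of unique molecular identifiers (UMIs, random tags that mark single cDNA molecules).

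HSP90 is an ATP-driven dimer that folds and stabilises signalling proteins, among them kinases and steroid hormone receptors, and in T cells the kinase Lck. Stip1 (HOP) links HSP70 to HSP90 and passes client proteins from the former to the latter. In mitochondria, HSP60 rings enclose unfolded matrix proteins under a lid of HSP10. Hsp90aa1, Hspd1 and Hspe1 are classical targets of the heat shock factor HSF1, and Hsp90ab1 is the more constitutive HSP90 gene.

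Hsp90aa1 lies on chromosome 12 (chr12:110690605-110702728, minus strand, GRCm38, GENCODE vM21), Hsp90ab1 on chromosome 17 (chr17:45567775-45573271, minus strand) and Stip1 on chromosome 19 (chr19:7020702-7039967, minus strand). Gm12346 is annotated as a transcribed processed pseudogene (chr11:77293444-77295898, plus strand) inside the locus of Ssh2. Hspd1 (chr1:55077835-55088243, minus strand) and Hspe1 (chr1:55088132-55091307, plus strand) stand head to head, and their annotated loci overlap by 112 bases. Counts were made per gene, so that no exon or UTR can be assigned to a value.

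The transcripts of Hsp90aa1 and Gm12346 could hardly be separated by sequence where they align. Over 2254 aligned bases they were 99.5% identical, with 11 mismatches and 1 gap. Of all 50-base windows of Gm12346, 75.4% occurred unchanged in Hsp90aa1, whereas 51.5% of the windows of Hsp90aa1 occurred in Gm12346. By contrast, Hsp90aa1 and Hsp90ab1 were 77% identical and shared 0 windows of 50 bases. The following stretches of 120 bases within the Hsp90aa1 coding sequence are shown because they hold the most mismatches between gene and pseudogene, 3 in number, in capitals:
Hsp90aa1 (transcript bases 278 to 397): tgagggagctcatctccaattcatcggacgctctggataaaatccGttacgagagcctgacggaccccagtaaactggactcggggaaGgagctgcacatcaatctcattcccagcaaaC
Gm12346 (transcript bases 186 to 305): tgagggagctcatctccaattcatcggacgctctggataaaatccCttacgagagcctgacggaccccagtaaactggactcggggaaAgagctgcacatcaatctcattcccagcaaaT
The alignment began at base 93 of the Hsp90aa1 transcript, so that only 8 of its first 100 windows occurred in Gm12346, whereas 98 of the first 100 windows of Gm12346 occurred in Hsp90aa1. Reads shorter than 50 bases had been discarded by the study. Reads were also kept only if the UMI and a GGG stretch came directly before the cDNA sequence. They thus began at the tagged end of a cDNA, which the window shares over whole transcripts do not take into account. The study counted molecules from STAR alignments with the Drop-seq protocol at default parameters. Whether reads that fit both genes were dropped, divided or assigned to either is not given in the sources used here. The counts of both are uncertain for that reason. Windows shared with some other annotated gene made up 44.8% of Hspd1, 36.1% of Hspe1, 5.59% of Stip1 and 4.49% of Hsp90ab1, and none of those other genes was in the table.

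The interval between Hspd1 and Hspe1 is shown because both genes start from it, and because their counts are compared as a pair. Heat shock elements are inverted repeats of the unit GAA, and the motif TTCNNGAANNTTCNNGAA, which reads the same on both strands and contains the shorter motifs GAANNTTC and GAANNTTCNNGAA, was searched in RefSeq promoter windows of 300 bases (GRCm38.p6). It occurred in 5 of 32851 windows (0.0152%), among them the window of Hspe1 and 1 of 2 windows of Hspd1, whereas GAANNTTC occurred in 7.86% and GAANNTTCNNGAA in 0.603% of all windows. The Stip1 window held none of the 3 motifs. Capitals mark the match:
Interval between Hspd1 and Hspe1 (chr1:55088053-55088082, plus strand, GRCm38): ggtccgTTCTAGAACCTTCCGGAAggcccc
The match lay 35 bases from the first exon of the Hspd1 transcript used here and 56 bases from the first exon of Hspe1, within a UTR exon of an alternative Hspd1 model. It describes the sequence and says nothing of binding in these cells. The matches in the windows of Hspd1 and Hspe1 are the same bases.

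Markers of the sorted cells and of other cells were read in each library. Cd4 was at 0 in all 14 CD8 libraries, and Cd8a and Cd8b1 were at 0 in all 17 CD4 libraries. The latter was fixed beforehand, as CD4 samples with these transcripts had been removed by the study. In 1 of the 8 CD4 SE libraries Cd4 was also at 0. Of 8 T cell markers, 5 were in the table (Cd3d, Cd3g, Trbc2, Cd2 and Ptprc), and their summed level ranged from 26.5 to 82.5 over the libraries. Of 8 choroid plexus epithelium markers, Ttr and Enpp2 were in the table, and their sum was between 74.9 and 312 in every library. By group this sum averaged 114 to 182, beside 43.0 to 51.4 for the T cell markers, so purity was not shown. The part of epithelial RNA in the chaperone counts was not tested. Total UMI counts over the table ranged from 1910 to 26395. The sample titles carry a first number, 1 or 2, which may mark the 2 series of experiments in which choroid plexus was collected, although the labels do not say so. Depth differed with it, at 1910 to 10089 UMIs in the 19 libraries of number 1 and 7657 to 26395 in the 12 libraries of number 2, with some overlap.

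Hsp90aa1, the stress-inducible HSP90 gene, was at 3.41, 10.8 and 26.1 (lowest, median and highest normalised count) in CD4 EE, and at 10.6, 22.1 and 30.5 in CD4 SE. In CD8 EE it was at 1.96, 7.64 and 14.6, and in CD8 SE at 3.82, 8.71 and 17.2. Only CD4 SE stood apart, and still overlapped the other groups: 2 of its 8 libraries lay above the highest CD4 EE library, and 4 of the 9 CD4 EE libraries lay below its lowest. The means were 11.4 ± 6.80 (SD) in CD4 EE, 20.9 ± 6.48 in CD4 SE, 8.12 ± 4.47 in CD8 EE and 9.25 ± 4.45 in CD8 SE. In order of the mean, CD4 SE exceeded CD4 EE by 9.54, more than the spread within these groups (pooled SD 6.64), whereas the next steps, of 2.11 and 1.13, were smaller than the spread.

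Gm12346 was at 0, 4.57 and 10.6 in CD4 EE, at 2.4, 5.67 and 12.9 in CD4 SE, at 0, 1.31 and 5.38 in CD8 EE, and at 0, 1.36 and 4.13 in CD8 SE. It had a mean of 5.32 ± 3.88 in CD4 EE, 6.81 ± 4.15 in CD4 SE, 1.95 ± 2.17 in CD8 EE and 1.41 ± 1.41 in CD8 SE. It was listed at 0 in 5 of the 14 CD8 libraries and in 1 of the 17 CD4 libraries, and 14 of the 31 libraries had at most 3 UMIs of it. The step from CD4 EE to CD8 EE, 3.37, was slightly larger than the spread (pooled SD 3.14), and the other steps were smaller. A count of 0 in CD8 EE replicate 4, where 1 UMI was worth 2.05, allows a level of up to 6.16.

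Hsp90ab1, the constitutive HSP90 gene, was detected in each library. It was at 7.41, 17.7 and 25.1 in CD4 EE, at 10.6, 25.3 and 40.6 in CD4 SE, at 6.16, 16.5 and 26.9 in CD8 EE, and at 6.79, 15.0 and 27.3 in CD8 SE. Here too CD4 SE was highest, with a mean of 25.8 ± 9.22, while the other 3 groups had nearly equal means of 17.1 to 17.4. The step from CD4 SE to the next group, 8.33, was within the spread (pooled SD 8.56).

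Stip1 had means of 3.76 ± 2.54 in CD4 EE, 6.57 ± 4.14 in CD4 SE, 3.21 ± 0.664 in CD8 EE and 3.16 ± 1.62 in CD8 SE. Its values in CD8 EE lay between 2.05 and 3.93, and 3 of the 8 CD4 SE libraries exceeded every CD4 EE library. None of the steps between neighbouring groups was larger than the spread. Stip1 had at most 3 UMIs in 13 of the 31 libraries, so its level in single libraries was imprecise.

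Hspd1 (HSP60) was at 4.35, 8.81 and 13.8 in CD4 EE, at 3.36, 13.4 and 23.3 in CD4 SE, at 3.93, 8.21 and 23.8 in CD8 EE, and at 2.07, 9.29 and 14.6 in CD8 SE. Hspe1 (HSP10) was at 0, 4.94 and 13.8 in CD4 EE, at 3.93, 8.06 and 30.1 in CD4 SE, at 1.96, 8.23 and 17.7 in CD8 EE, and at 0, 6.20 and 20.0 in CD8 SE. Both genes overlapped between all groups, and their highest values were in libraries of number 2. The group means of Hspe1 ranged from 5.32 ± 4.21 (CD4 EE) to 10.7 ± 8.41 (CD4 SE), and no step between neighbouring groups exceeded the spread.

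**Figure D1:**
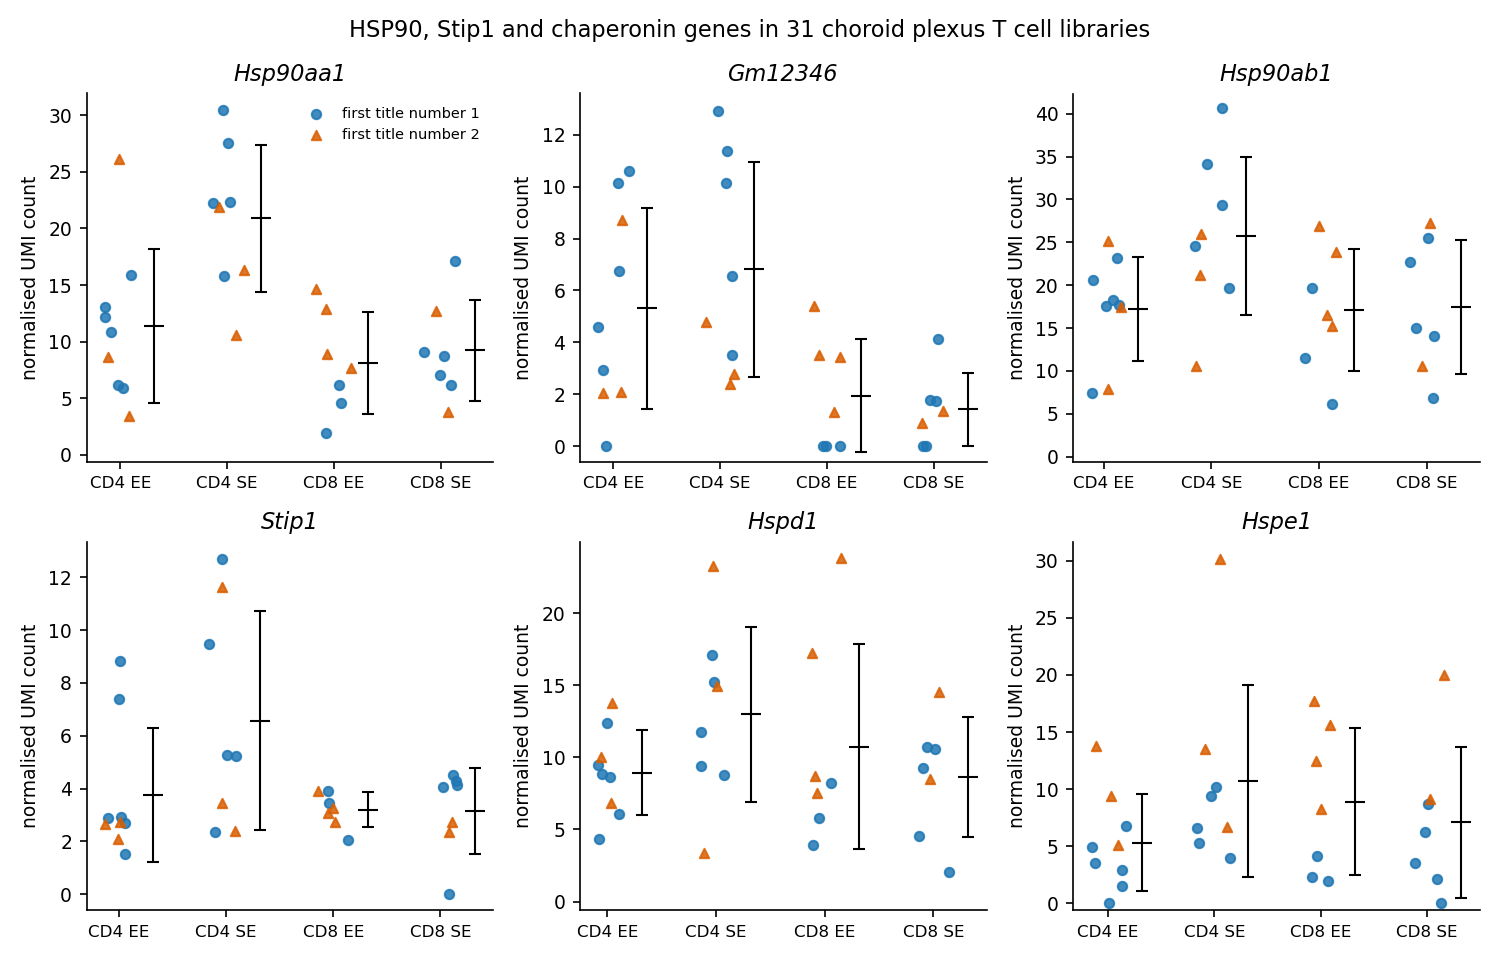
Normalised UMI count (vertical axes) of each of the 6 genes in CD4 EE (n = 9), CD4 SE (n = 8), CD8 EE (n = 7) and CD8 SE (n = 7). Each point is a library, circles and triangles are first title numbers 1 and 2, and the black marks give the mean ± SD of a group. CD4 SE has the highest mean in each panel, Gm12346 is at 0 in 5 CD8 libraries, and the triangles lie high for Hspe1.

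The comparison of EE vs. SE in CD4+ T cells asks whether housing changes the T cells that the study linked to brain plasticity. All 6 genes had lower values in EE, with log2 differences on the log2(value + 1) scale of -0.95 (SE 0.308) for Hsp90aa1, -0.45 (SE 0.445) for Gm12346, -0.56 (SE 0.278) for Hsp90ab1, -0.62 (SE 0.383) for Stip1, -0.41 (SE 0.312) for Hspd1 and -0.99 (SE 0.438) for Hspe1. Their median was -0.59, beside a median of -0.036 over the 483 genes tested, of which 53.2% were lower in EE. The limma test with Benjamini-Hochberg adjustment called 0 of the 483 genes (0%), and 0 of the 6. At an unadjusted p under 0.05 it called 18 genes (3.73%), and the 2 of the 6 genes that were among them had been part of the reason for choosing the set. edgeR and DESeq2 each called 1 gene at the adjusted threshold, which was none of the 6.

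When the same CD4 libraries were split by title number, values were lower in EE within both numbers for 5 of the 6 genes. These libraries had been used to choose the genes, so the split is description and no independent test. Hsp90aa1 differed by -1.13 within number 1 and by -0.66 within number 2, Hspe1 by -1.11 and -0.63, Hsp90ab1 by -0.76 and -0.23, Stip1 by -0.58 and -0.73, and Hspd1 by -0.55 and -0.13. For Gm12346 the difference was -0.80 within number 1 and 0.10 within number 2. Summed per library, the 6 genes reached 28.0, 54.1 and 74.3 (lowest, median and highest) in CD4 EE and 36.0, 81.4 and 119 in CD4 SE, so that the groups overlapped. The summed level of Ttr and Enpp2 was 182 ± 51.2 in CD4 EE, compared with 154 ± 46.5 in CD4 SE. That of the T cell markers was 50.1 ± 11.1 and 51.4 ± 16.7, respectively. The part of these cells in the result was not tested. In bulk pools, fewer cells of a type and less RNA per cell cannot be told apart.

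When Hsp90aa1 and Gm12346 were added into a single value, the log2 difference in CD4 was -0.83. Gm12346 made up 29.4 ± 13.6% of their joint UMIs in CD4 EE and 22.9 ± 7.27% in CD4 SE. These shares differed by less than their spread over libraries.

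In CD8+ T cells, where the same contrast had not been used to choose the genes, no difference was detected. The log2 differences of EE vs. SE were -0.23 for Hsp90aa1 (95% interval -0.97 to 0.51), 0.11 for Gm12346 (-1.05 to 1.27), -0.013 for Hsp90ab1 (-0.65 to 0.62), 0.17 for Stip1 (-0.68 to 1.02), 0.25 for Hspd1 (-0.53 to 1.02) and 0.46 for Hspe1 (-0.66 to 1.57), each with an adjusted p of 0.991 by limma. Their median was 0.14, beside 0.042 over all 484 genes. The test called 0 of 484 genes (0%), and 12 genes at an unadjusted p under 0.05 (2.48%), none of them among the 6. By edgeR 0 genes were called, with 12 at an unadjusted p under 0.05, and by DESeq2 0, with 6. The differences varied with the title number, which was not tested: Hsp90aa1 was at -1.03 within number 1 and 0.52 within number 2, Gm12346 at -1.06 and 0.97, and Hsp90ab1 at -0.42 and 0.22, with an adjusted p of 0.912 within number 1 and 0.982 within number 2. Of the 6 intervals, only that of Gm12346 reached below -1, and those of Hsp90aa1 and Hsp90ab1 were the only ones to end below 1 on the upper side.

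An interaction term was used to ask whether housing acted differently in CD4+ and CD8+ T cells. The CD4 side of this contrast was known when the genes were chosen, so that its direction is not independent. All 6 estimates were negative, from -0.55 (SE 0.427) for Hsp90ab1 to -1.45 (SE 0.728) for Hspe1, with an adjusted p of 0.976 each, and their median was -0.69, beside -0.078 over all genes. limma called 0 of 485 genes (0%), and 12 genes at an unadjusted p under 0.05 (2.47%), none of which was among the 6. edgeR and DESeq2 also called 0 genes, with 9 and 8 at an unadjusted p under 0.05. The estimates varied with the title number. That of Hsp90aa1 was -0.095 within number 1 and -1.18 within number 2, that of Gm12346 0.26 and -0.88, and that of Hspe1 -1.0 and -0.58, or -0.95 with the number as a covariate. A different response of CD4+ and CD8+ T cells was therefore not shown for any of these genes.

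**Figure D2:**
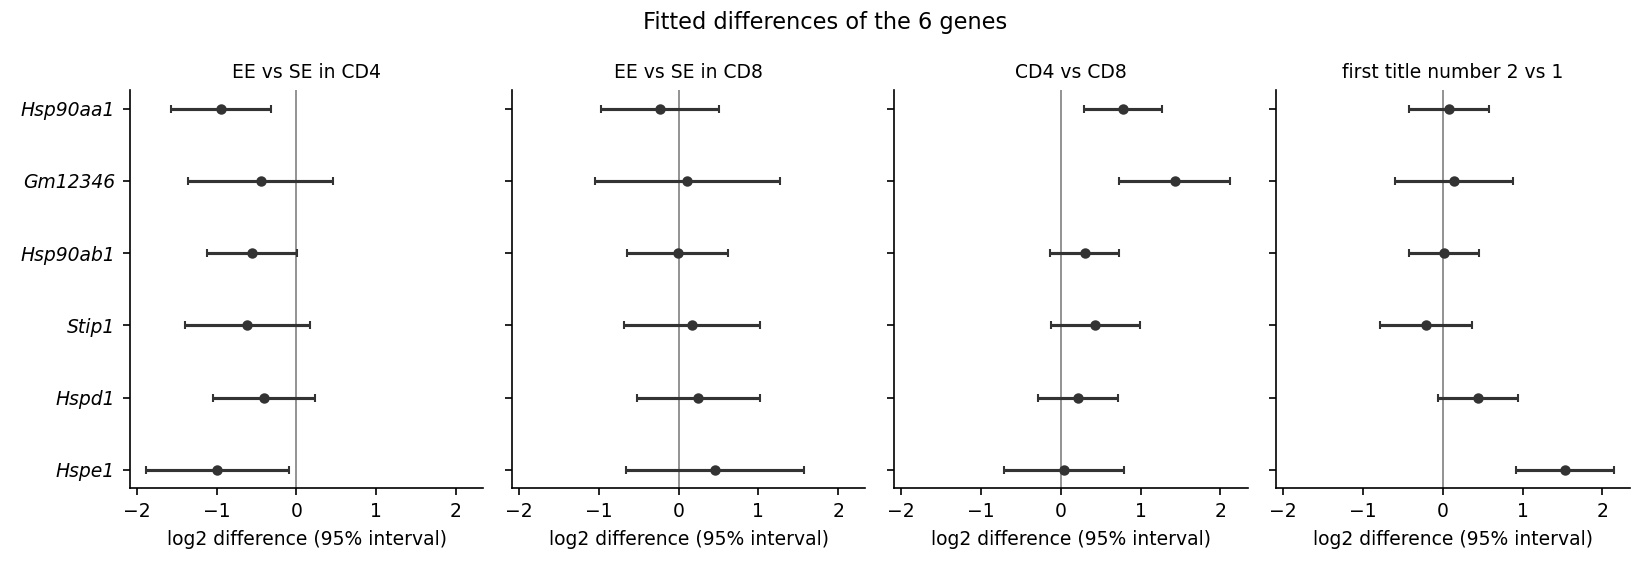
Log2 difference on the log2(value + 1) scale (horizontal axes) of the 6 genes in EE vs. SE of CD4, EE vs. SE of CD8, CD4 vs. CD8, and first title number 2 vs. 1. Points are limma estimates and bars their 95% intervals. In the CD4 panel all 6 estimates lie below 0, and the intervals of Gm12346, Hsp90ab1, Stip1 and Hspd1 cross 0. In the CD8 panel all intervals cross 0, and Hspe1 stands apart in the last panel.

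Between cell types, all 6 genes had higher values in CD4 than in CD8, although the difference of Hspe1 was near 0 and turned negative in 13 of 42 alternatives. The log2 differences were 0.78 (SE 0.244) for Hsp90aa1, 1.43 (SE 0.346) for Gm12346, 0.30 (SE 0.215) for Hsp90ab1, 0.43 (SE 0.277) for Stip1, 0.22 (SE 0.250) for Hspd1 and 0.043 (SE 0.375) for Hspe1. Their median was 0.37, beside 0.072 over all 485 genes, and limma called 36 of 485 genes (7.42%). The 2 of the 6 genes among them, Hsp90aa1 and Gm12346, had been part of the reason for choosing the set, and nothing is read from that count. The differences were larger within number 1, at 1.22 for Hsp90aa1 and 2.26 for Gm12346, than within number 2, at 0.33 and 0.48. Within number 2, Hsp90ab1, Hspd1 and Hspe1 were lower in CD4, by -0.19, -0.23 and -0.28.

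In 10 mice with a library of each cell type, Hsp90aa1 was higher in CD4 in 8, with a mean difference of 0.99 ± 0.794 (SD) on the log2 scale. Gm12346 was higher in 8 of 10 (1.87 ± 1.41), Hsp90ab1 in 9 of 10 (0.60 ± 0.940), Hspd1 in 8 of 10 (0.33 ± 0.463), Stip1 in 6 of 10 (0.47 ± 1.21) and Hspe1 in 6 of 10 (0.33 ± 1.42). Among the 3 mice of number 2, CD4 was higher in 3 for Hsp90ab1 and in 2 for Hspd1, unlike the group difference within number 2, and in 0 for Hspe1. Among the 7 mice of number 1, CD4 was higher in 6 for each of these 3 genes. Mice were identified here by environment, title number and animal number together.

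Gm12346 took a larger part of the joint Hsp90aa1 and Gm12346 UMIs in CD4 than in CD8 libraries. The CD4 vs. CD8 difference was known when Gm12346 was chosen, so these shares are given as description, without a test. Its share averaged 26.3 ± 11.2% over 17 CD4 libraries and 14.0 ± 12.9% over 14 CD8 libraries. Pooled, these were 102 of 408 UMIs in CD4 (25%, Wilson 95% interval 21.0 to 29.4%) and 39 of 222 in CD8 (17.6%, 13.1 to 23.1%), and intervals cover counting error only. The gap was wider in number 1, with 30.6% of 183 UMIs in CD4 (24.4 to 37.6%) and 12.5% of 48 in CD8 (5.86 to 24.7%). In number 2 the shares were 20.4% of 225 UMIs in CD4 (15.7 to 26.2%) and 19.0% of 174 in CD8 (13.8 to 25.4%). In CD8 EE of number 1, all 3 libraries had 0 UMIs of Gm12346 among 8 in total (Wilson 95% upper bound 32.4%). Whether the gap differed between the title numbers was not tested.

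No difference in the shares between paired genes was detected between EE and SE in CD8. Gm12346 made up 13.0 ± 12.9% of the Hsp90aa1 and Gm12346 UMIs in EE and 15.0 ± 13.8% in SE (difference -2.05 percentage points, exact two-sided permutation test over 3432 arrangements, p = 0.770). Hsp90aa1 made up 32.3 ± 12.2% of the Hsp90aa1 and Hsp90ab1 UMIs in EE and 35.6 ± 14.1% in SE (difference -3.23, exact p = 0.649). Hspe1 made up 42.3 ± 11.2% of the chaperonin UMIs in EE and 39.2 ± 26.2% in SE (difference 3.11, exact p = 0.775). Adjusted over these 3 tests, each p was 0.775. The joint UMIs of a CD8 library ranged from 1 to 42, from 6 to 105 and from 2 to 97, respectively. Each library weighed the same, so shares from few UMIs limited what these tests could detect. From UMIs pooled over the libraries of a group the differences were 6.21, 2.91 and -1.34 percentage points, each of the opposite sign. In CD4, given as description, the Hsp90aa1 share was 38.3 ± 11.7% in EE and 45.3 ± 4.97% in SE, and the Hspe1 share 33.5 ± 16.3% in EE and 43.9 ± 14.1% in SE. These shares are of counted molecules and are not corrected for differences between genes in capture or mapping, so they are compared between libraries only.

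**Figure D3:**
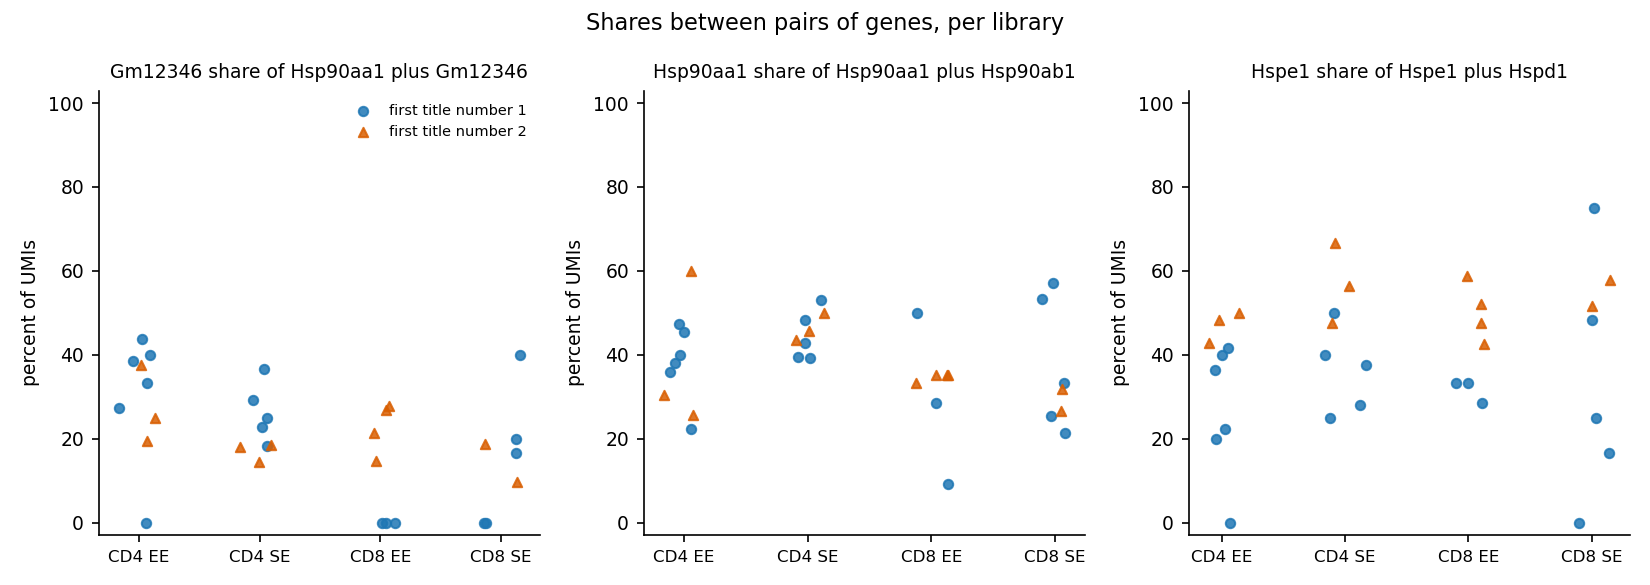
Percent of UMIs (vertical axes) taken by Gm12346 of Hsp90aa1 plus Gm12346, by Hsp90aa1 of Hsp90aa1 plus Hsp90ab1, and by Hspe1 of Hspe1 plus Hspd1. Each point is a library of CD4 EE, CD4 SE, CD8 EE or CD8 SE, and circles and triangles are first title numbers 1 and 2. In the last panel all triangles lie at 42.6% or above, and most circles lie lower.

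The first title number, which had not been used to choose the genes, went with a marked difference in Hspe1. Over all groups, Hspe1 was higher in number 2 than in number 1 by 1.53 on the log2(value + 1) scale (SE 0.304, 95% interval 0.92 to 2.14, limma adjusted p = 0.00073). This is 2.88-fold in value + 1, and the ratio of pooled UMIs per 10000 was 2.72. It had the 6th smallest p of 485 genes and the 3rd largest difference in either direction. limma called 52 of 485 genes (10.7%), and Hspe1 was the only one of the 6. Hspe1 was at 0, 3.93 and 10.2 (lowest, median and highest) in the 19 libraries of number 1 and at 5.12, 13.0 and 30.1 in the 12 libraries of number 2, so the ranges overlapped in part. The adjusted p lay between 1.86e-05 and 0.00375 over the 39 alternatives, leaving out each library among them.

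The difference was present in each group. The mean of Hspe1 was 3.28 ± 2.41 in number 1 (n = 6) and 9.42 ± 4.33 in number 2 (n = 3) in CD4 EE, and 7.08 ± 2.66 (n = 5) and 16.8 ± 12.0 (n = 3) in CD4 SE. In CD8 EE it was 2.79 ± 1.15 (n = 3) and 13.5 ± 4.12 (n = 4), and in CD8 SE 4.12 ± 3.41 (n = 5) and 14.6 ± 7.71 (n = 2). In both CD4 groups the ranges of the 2 numbers overlapped. In both CD8 groups they did not, though in CD8 SE number 1 reached up to 8.71 and number 2 down to 9.11. How many of all genes separate in this way was not counted, and nothing is read from it. Since 13 of the 19 libraries of number 1 had at most 3 UMIs of Hspe1, the counts were also pooled. They gave 65 UMIs of Hspe1 in number 1, or 8.05 per 10000 UMIs of the table (exact Poisson 95% interval 6.21 to 10.3). In number 2 there were 379, or 21.9 per 10000 (19.8 to 24.2). Both intervals cover counting error only, not the spread between libraries.

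Hspd1, which encodes the partner of HSP10, was higher in number 2 by 0.44 (SE 0.249, 95% interval -0.060 to 0.95), which did not pass the test (adjusted p = 0.26). Pooled, it had 14.6 UMIs per 10000 in number 1 (12.1 to 17.5) and 20.4 in number 2 (18.3 to 22.6). Intervals of pooled counts and shares cover counting error only, not the spread between libraries, and are no test of a difference. Whether Hspe1 and Hspd1 differed in this respect was not tested. As a share of the chaperonin UMIs, Hspe1 averaged 31.6 ± 17.3% in number 1 and 51.9 ± 7.03% in number 2. It was higher in number 2 in 4 of 4 groups, by 18.5 to 21.8 percentage points. Pooled, the shares were 35.5% of 183 UMIs (Wilson 95% interval 28.9 to 42.7%) and 51.8% of 731 (48.2 to 55.4%). These shares were computed after the Hspe1 difference was seen, and no test was made of them.

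The HSP90 genes and Stip1 did not pass the test between title numbers. Hsp90aa1 differed by 0.078 (95% interval -0.42 to 0.58), Hsp90ab1 by 0.015 (-0.43 to 0.46), Gm12346 by 0.14 (-0.60 to 0.88) and Stip1 by -0.22 (-0.79 to 0.36), with adjusted p from 0.704 to 0.974. All 4 intervals lay within 1 of 0 on this scale, which understates changes of genes with low values, and the difference of Gm12346 was -0.50 with edgeR and -0.43 with DESeq2. With the title number go the depth, given above, and the markers: the T cell markers summed to 53.7 ± 10.1 in number 1 and 37.5 ± 7.61 in number 2, and Ttr and Enpp2 to 176 ± 72.1 and 122 ± 39.5. Their part in the Hspe1 result was not tested. Since the environments were present in both numbers in each cell type, Hspe1 was also compared between EE and SE with the number as a covariate, which gave -0.94 in CD4 and -0.088 in CD8.

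Other chaperone genes of the table gave the setting of these values. Of 24 genes of the HSP70 machine, 6 were in the table: Hspa8, the constitutive cytosolic HSP70, Hspa1a and Hspa1b, the inducible HSP70 genes, Hspa5, the HSP70 of the endoplasmic reticulum, and Dnaja1 and Dnajb1, J-domain proteins that activate HSP70. In number 2 vs. 1, Hspa1a was higher by 1.18 (SE 0.317, adjusted p = 0.0096) and Hspa1b by 1.47 (SE 0.317, adjusted p = 0.00201), so that 2 of 6 passed, beside 10.7% of all genes. The 2 are near-identical copies whose counts are uncertain. The median of the list was 0.80, beside 0.031 over all genes. Dnajb1 differed by 0.83 (adjusted p = 0.0579), Dnaja1 by 0.77 (adjusted p = 0.119), Hspa5 by 0.26 and Hspa8 by less than 0.001 in size.

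In EE vs. SE of CD4, all 6 HSP70 genes and partners had lower values and 0 passed the adjusted threshold, with a median of -0.90. Dnaja1 differed by -1.58 (SE 0.391) and Dnajb1 by -1.12 (SE 0.374). In CD8, all 6 also had lower values and 0 passed, with a median of -0.34, the largest being -0.79 (SE 0.414) for Hspa5 and -0.70 (SE 0.558) for Hspa1a. In CD4 vs. CD8, 6 of 6 were higher in CD4 and 0 passed (median 0.66), the 2 largest being Hspa1a at 1.03 and Hspa1b at 0.72. In the interaction 0 passed.

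**Figure D4:**
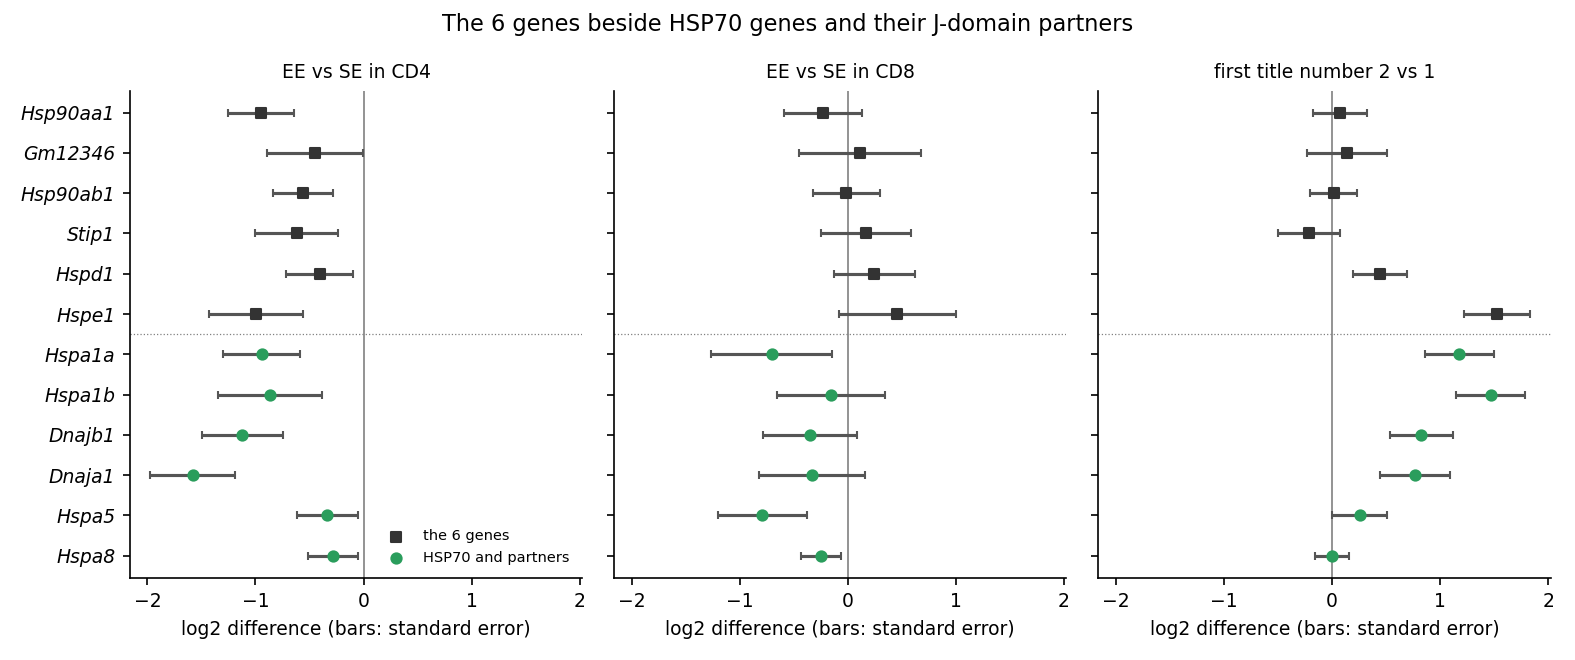
Log2 difference on the log2(value + 1) scale (horizontal axes) of the 6 genes (squares) and of the 6 HSP70 genes and partners in the table (circles), in EE vs. SE of CD4, EE vs. SE of CD8 and first title number 2 vs. 1, with bars for the standard error. All 12 points lie below 0 in the CD4 panel, and Hspe1, Hspa1a and Hspa1b lie highest in the last panel.

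Few other genes of the HSP90 pathway were in the table. Of 22 further genes of the HSP90 system only Hsp90b1, the HSP90 of the endoplasmic reticulum, was measured, and its differences were -0.29 in EE vs. SE of CD4, 0.15 in CD8, 0.58 in CD4 vs. CD8 and -0.32 between title numbers. Of 14 HSP90 client proteins of T cells, Lck and Jak1 were measured, and 0 of 2 passed in any comparison, with 0.11 for Lck and 0.48 for Jak1 in EE vs. SE of CD4 and -0.52 and 0.84 in CD8. Of 14 genes of the cytosolic chaperonin and prefoldin, Tcp1 and Pfdn5 were measured, and of 21 genes of mitochondrial import and proteostasis, Tomm7 and Timm13, with 0 passing in any comparison. In EE vs. SE of CD8 the differences were -0.80 for Tcp1, -0.83 for Pfdn5, -0.040 for Tomm7 and 0.78 for Timm13. Of 18 immediate early genes, which respond within minutes to stimulation or handling, 8 were in the table. Junb was the only one to pass, in CD4 vs. CD8, at 1.13 higher in CD4 (SE 0.246, limma adjusted p = 0.00178), and in EE vs. SE of CD4 the median of the 8 genes was -0.32.

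After removal of the mean of each group and title number, the 6 genes varied together to different degrees over the 31 libraries. Spearman's rho of their 15 pairs ranged from 0.014 (Gm12346 and Stip1) to 0.56 (Hsp90aa1 and Hspd1), with a median of 0.27, beside a median of 0.013 over all gene pairs of the table. Hspd1 was the 4th gene most like Hsp90aa1 among 484, and Hspe1 the 5th most like Hsp90ab1. By contrast, Hsp90ab1 was the 65th most like Hsp90aa1 (rho 0.27), and Stip1 the 256th most like Gm12346. The genome neighbours Hspd1 and Hspe1 had a rho of 0.46. Stip1 followed none of the others closely, with values of 0.014 to 0.24.

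Among genes outside the set, those most like Hsp90aa1 were Mcl1 (rho 0.60), Serbp1 (0.57) and Hspa8 (0.57). Those most like Hsp90ab1 were Ndufa7 (0.57), Dnajb1 (0.55) and Rgs1 (0.55), and those most like Hspe1 were Ptpn6 (0.69), Klf2 (0.59) and Hspa1a (0.57). Hspd1 was most like Acap1 (0.67), Arpc4 (0.63) and Capzb (0.60), Gm12346 like Ptpn6 (0.64), Gm9843 (0.62) and Fau (0.55), and Stip1 like Arf1 (0.54), Srsf5 (0.50) and Rpl5 (0.45). An HSP70 gene or partner was thus among the 3 closest genes of Hsp90aa1 (place 3), Hsp90ab1 (place 2) and Hspe1 (place 3). None was among those of Gm12346, Stip1 or Hspd1, and other genes held the first place throughout. The points share library depth and size factor, and the correlations are given without a test.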

How the data were processed

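RNA was measured in 31 libraries of 6 to 20 T cells sorted from the choroid plexus. As the study's methods and the labels describe, the authors trimmed reads with cutadapt, kept those with a UMI pattern and at least 50 bases, mapped them with STAR 2.4.0a to mm10, counted UMIs per gene, removed low-abundance genes and CD4 samples with Cd8a or Cd8b transcripts, and normalised with DESeq2. The deposited table gives 485 genes as a signal, UMI counts that the authors divided by a size factor for each library. Whole UMI counts were recovered from it (100% of values within 0.001 of a whole number), and all columns were used. The table is a subset of each library, so its totals are not full depths.

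The main test was limma 3.58.1 (trend) on log2(value + 1), with Benjamini-Hochberg adjustment over every gene that was not 0 throughout, at a threshold of 0.05. EE and SE were compared within each cell type, CD4 with CD8 and first title numbers with the group as a term, and the interaction over all groups. The test was checked on simulated data with known changes. Alternatives were pseudocounts of 0.5 and 4, a mean of at least 5, edgeR 4.0.16 and DESeq2 1.42.0 on recovered counts, rescaled totals, the title number as covariate or as strata, a mouse block, summed pseudogene counts, averaged CD8 SE replicates 5 and 6, and leaving out each library. Groups came from the sample titles, and replicates were numbered in accession order. CD8 SE replicates 5 and 6 share an animal number in their titles and were treated as a single identity. Every pair of libraries of a group differed by more than sampling noise (chi-square per degree of freedom 1.24 to 4.49, where 1 is sampling noise). Libraries of a mouse were recognised from the titles, and in 10 mice the correlation of CD4 and CD8 deviations ranged from -0.11 to 0.21, above 0.1 in 4.

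The 6 genes and all gene and marker lists were chosen with earlier results of these data known. Genes named beyond the 6 were, for each of them, the 3 most like it by Spearman's rho, and from each list those that passed, or otherwise the 2 with the largest difference. Of the marker lists, Cst3 was the only one of 10 myeloid markers in the table (0 to 24.6), and no B cell, erythrocyte or endothelial marker was. Coordinates and transcripts are from GENCODE vM21 (GRCm38), promoter windows from RefSeq (GRCm38.p6), and Hspd1, Hspe1 and Stip1 matched a promoter entry. Sequences were aligned with Biopython 1.88, and figures drawn with matplotlib 3.10.9.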

Additional observations from a re-analysis of the deposited data

Results flagged for a closer look

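In 36 groups of values (the 6 genes and the 3 shares in each of the 4 groups), 2 libraries lay farther from the rest of their group than Dixon's 95% criterion allows, and chance gives about 1 in 20 such groups. Hspe1 was at 30.1 in CD4 SE replicate 8, next to 13.5 in the nearest of the 8 libraries, a gap of 0.633 of the range against a limit of 0.526. This library had the fewest sorted cells, 6, and first title number 2. Without it, the log2 difference of Hspe1 between EE and SE in CD4 and that between title numbers kept their directions.

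Gm12346 was at 4.13 in CD8 SE replicate 4, next to 1.76 in the nearest of the 7 libraries, a gap of 0.574 of the range against a limit of 0.568. The value of 4.13 stood for 2 UMIs.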

How the results depend on the processing

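In EE vs. SE of CD4 the count of 0 became 1 with a pseudocount of 4, with edgeR and with DESeq2, in CD8 it became 1 within number 1, and in the interaction it stayed at 0. In CD4 vs. CD8 the count of 36 became 14 with a mean of at least 5, 55 with DESeq2 and 20 within either title number, and 24 to 44 when each library was left out. Between title numbers the count of 52 became 90 with edgeR and 104 with DESeq2, and 46 to 69 when each library was left out. With the mouse as a replicate block, a paired analysis, the counts were 53 in CD4 vs. CD8, 0 in the interaction and 50 between title numbers, and no call among the 6 genes that was tested changed. The call of Hspe1 between title numbers held in all 39 alternatives.

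Several estimates changed sign, and not only those near 0. Among them were Hspe1 in EE vs. SE of CD8, at 0.46 in the main fit, and Gm12346 in the interaction, at -0.56. In EE vs. SE of CD8, Hsp90aa1 was 0.053 with edgeR and 0.52 within number 2, Gm12346 -0.21 with the covariate and -1.06 within number 1, Hsp90ab1 0.22 within number 2, Hspd1 -0.0079 with the covariate and -0.15 within number 1, and Hspe1 -0.088, -0.11 and -0.056 with the covariate and within numbers 1 and 2. When each library was left out, these estimates ranged from -0.39 to 0.0096 (Hsp90aa1), -0.14 to 0.33 (Gm12346), -0.20 to 0.19 (Hsp90ab1), -0.15 to 0.26 (Stip1) and -0.0022 to 0.42 (Hspd1). In the interaction, Gm12346 was 0.26 within number 1. Between title numbers, Gm12346 was -0.068 with a pseudocount of 4, -0.50 with edgeR and -0.43 with DESeq2, and Hsp90ab1 -0.020 with DESeq2, while leaving out each library gave -0.068 to 0.23 for Hsp90aa1 and -0.11 to 0.14 for Hsp90ab1. The share differences in CD8 became 8.48 (Gm12346) and 5.52 (Hsp90aa1) within number 2, and -1.26 and -4.49 (Hspe1) within numbers 1 and 2. They ranged from -4.55 to 2.12, from -6.17 to 0.649 and from -3.43 to 9.07 when each library was left out. The cause was not tested.

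Few UMIs limited the precision of single libraries: 14 libraries had at most 3 UMIs of Gm12346, 13 of Stip1 and 13 of Hspe1.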
